A study of Mus musculus with 6 samples.

Results

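mmu-miR-147-3p, mmu-miR-147-5p, mmu-miR-184-3p and mmu-miR-187-3p (mmu, for mouse, is left out from here on) are 4 mature miRNAs, cut from 3 hairpins, that lie outside the imprinted Dlk1-Dio3 locus. They were chosen by their read counts in these libraries, as miRNAs outside that locus with more reads in 2i and R2i than in serum, and they are 4 of the 1907 mature miRNAs in the deposited count table. Small RNA was sequenced from the ESC lines RB18 and RB20, which were derived from C57BL/6 mice in R2i with LIF and grown without feeders in serum, 2i or R2i for at least 10 passages. Each of the 6 libraries came from 1 line in 1 medium and from a pool of 3 cultures. All media held 1000 U/ml LIF. The serum medium held 15% fetal bovine serum, and 2i and R2i were serum free. Both of these contained PD0325901 (1 µM), which blocks MEK, joined in 2i by CHIR99021 (3 µM), which blocks GSK3, and in R2i by SB431542 (10 µM), which blocks TGF-β receptors. The serum libraries held 1744187 (RB18) and 2243369 (RB20) miRNA reads, the 2i libraries 2057602 and 3365676, and the R2i libraries 1041858 and 3593356. The smaller library of each medium was that of RB18, so line and depth cannot be told apart. The 17 miRNAs of the pluripotent ESC marker list, led by miR-295-3p, summed to between 370475 and 421914 normalized CPM in every library, where CPM scales the reads of a miRNA by the library total and edgeR's TMM factor.

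A miRNA hairpin holds a mature strand on each arm, named 5p and 3p, and the strand loaded into an Argonaute protein pairs with target mRNAs mainly through its seed near the 5′ end. miR-147 is known from macrophages, where Toll-like receptor signals induce it and it dampens the inflammatory response. miR-184 is known from the lens and cornea of the eye, from neural cells and from pancreatic islets, and miR-187 has been described in islet cells and in cytokine-treated monocytes.

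Mature sequences were taken from RefSeq (GRCm38.p6) by miRNA name, and 2 of the 4 miRNAs matched, miR-147-5p and miR-184-3p, while miR-147-3p and miR-187-3p are named only. The partner arm miR-184-5p and the Mir184 hairpin are shown with them because the 2 arms of miR-184 differed most in read number of the 3 hairpins. In the mature sequences, written 5′ to 3′, capitals mark the seed (bases 2 to 8), and in the hairpin they mark the 2 arms.
miR-147-5p: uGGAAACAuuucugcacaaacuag
miR-184-3p: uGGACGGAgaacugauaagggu
miR-184-5p: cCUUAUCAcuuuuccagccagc
Mir184 hairpin: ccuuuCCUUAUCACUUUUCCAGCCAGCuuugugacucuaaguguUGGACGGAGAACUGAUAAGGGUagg
Among the 1679 mature mouse sequences of this table, none shares its seed with miR-147-5p, miR-184-3p or miR-184-5p, so each of the 3 stands alone in its seed group. miR-147-5p has 24 bases and miR-184-3p has 22. In the 69-base Mir184 hairpin the 5p arm starts at base 6 and the 3p arm at base 45, with 17 bases between them.

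miR-147-5p maps to chr2:122640814-122640837 on the plus strand, within the Mir147 gene at chr2:122640803-122640881. That gene lies in an exon, in the annotated UTR, of the protein-coding gene AA467197 on the same strand (GENCODE M21), so the miRNA and this transcript overlap. The nearest other protein-coding genes are Gatm, which encodes an enzyme of creatine synthesis, 29.5 kb to the left, and the zinc transporter gene Slc30a4, 40.4 kb to the right. miR-184-3p maps to chr9:89802263-89802284 and miR-184-5p to chr9:89802302-89802323, both on the minus strand, in the Mir184 gene at chr9:89802260-89802328. Mir184 overlaps no other annotated gene. Its neighbours are Ankrd34c, 63.8 kb to the left, and Rasgrf1, an imprinted gene for a Ras exchange factor, 108 kb to the right. Within 1 Mb, RefSeq lists 0 other miRNA genes around Mir147, 0 around Mir184 and 1 near Mir187, Mir6360, whose mature miRNA had 0 reads in all 6 libraries. Apart from the arms of their own hairpins, none of the 4 miRNAs therefore has a partner with reads within that distance.

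miR-147-3p, the arm of miR-147 with more reads, measured 50.9 normalized CPM (93 reads) in serum RB18 and 47.1 (95 reads) in serum RB20, 149 (306 reads) and 139 (454 reads) in 2i RB18 and RB20, and 119 (139 reads) and 145 (508 reads) in R2i RB18 and RB20. Both serum libraries were low, and the lowest of the 4 ground-state (2i and R2i) libraries stood 2.34-fold above the highest serum library. The media means were 144 ± 7.13 in 2i, 132 ± 18.4 in R2i and 49.0 ± 2.71 in serum (normalized CPM, SD, n = 2), and 2i and R2i differed by less than the SD of R2i. Within each line, 2i over serum came to 2.92-fold in RB18 and 2.94-fold in RB20, and R2i over serum to 2.34-fold and 3.09-fold. Because these are bulk cultures, fewer cells that make a miRNA and less of it per cell cannot be told apart.

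miR-147-5p, the opposite arm of the same hairpin, measured 21.4 normalized CPM (39 reads) and 30.2 (61 reads) in serum RB18 and RB20, 70.0 (144 reads) and 88.9 (291 reads) in 2i, and 78.1 (91 reads) and 109 (380 reads) in R2i. It was lowest in the serum libraries again, with a 2.31-fold gap between the lowest ground-state and the highest serum library. R2i had the higher mean, 93.4 ± 21.7, followed by 2i with 79.4 ± 13.3 and serum with 25.8 ± 6.28 (SD, n = 2), and the R2i and 2i values overlapped. RB20 lay above RB18 in each medium, by 1.42-fold in serum, 1.27-fold in 2i and 1.39-fold in R2i.

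miR-184-3p, the eye and islet miRNA, measured 18.6 normalized CPM (34 reads) and 18.8 (38 reads) in serum RB18 and RB20, 60.7 (125 reads) and 185 (606 reads) in 2i, and 59.2 (69 reads) and 93.3 (326 reads) in R2i. The serum libraries were almost equal, whereas the ground-state libraries spread more widely, with 2i RB20 far above the other 3. Its means were 123 ± 87.9 in 2i, 76.2 ± 24.1 in R2i and 18.7 ± 0.156 in serum (SD, n = 2), and the R2i mean lay within 1 SD of the 2i mean. The 2i to serum ratio was 3.26 in RB18 and 9.82 in RB20, and the R2i to serum ratio 3.18 and 4.95. The lowest ground-state library was 3.14-fold above the highest serum library, the widest such gap of the 4 miRNAs.

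miR-187-3p measured 29.6 normalized CPM (54 reads) and 23.8 (48 reads) in serum RB18 and RB20, 48.6 (100 reads) and 63.2 (207 reads) in 2i, and 59.2 (69 reads) and 66.9 (234 reads) in R2i. The means ran from 63.1 ± 5.48 in R2i through 55.9 ± 10.3 in 2i to 26.7 ± 4.08 in serum (SD, n = 2). R2i and 2i overlapped, and the step from serum was the smallest of the 4, with 1.64-fold between the lowest ground-state and the highest serum library. In each line the ratio of 2i to serum, 1.64 in RB18 and 2.66 in RB20, was below that of R2i to serum, 2.00 and 2.81.

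**Figure D1:**
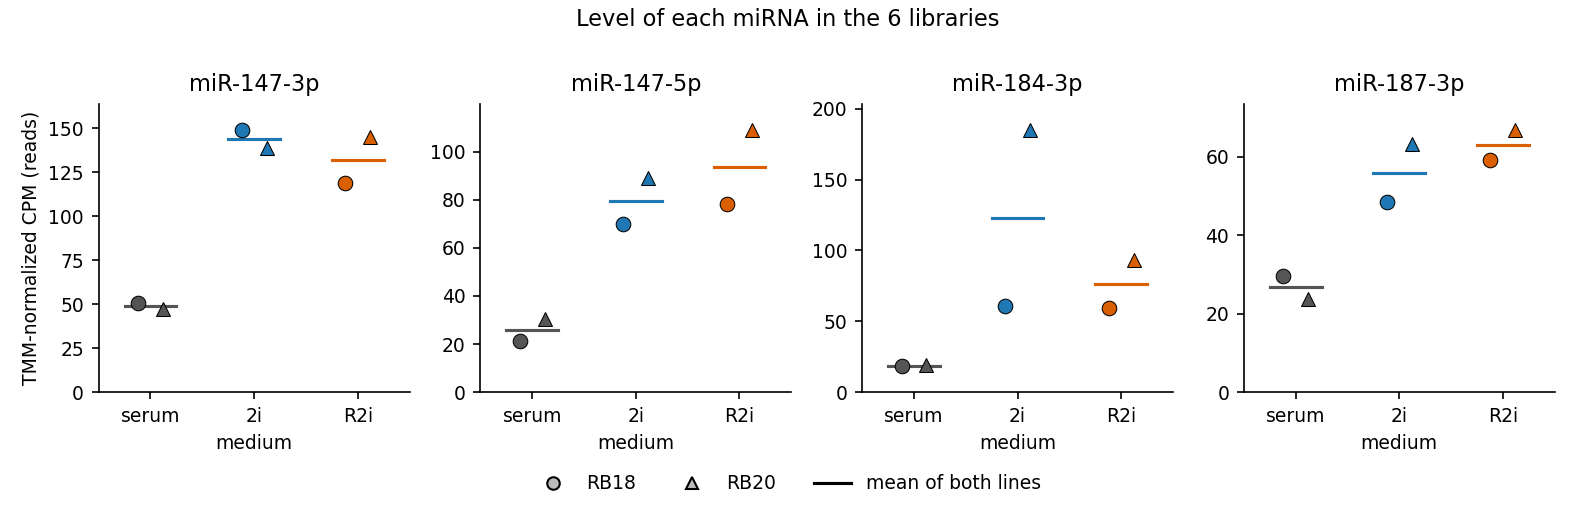
TMM-normalized CPM (linear axis from 0, a scale per panel) of the 4 miRNAs in serum, 2i and R2i, with circles for RB18, triangles for RB20 and a bar at the mean of both lines. Every 2i and R2i point lies above both serum points, and miR-184-3p in 2i RB20, at 185, stands apart from its other ground-state points.

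The plot of levels shows the pattern by which the 4 were chosen, so their place above serum is no independent result. All 4 ground-state libraries exceeded both serum libraries for each of the 4 miRNAs, as they did for 166 of the 571 tested miRNAs (29.1%). By mean normalized CPM over the 6 libraries, miR-147-3p (108) ranked 224 among the 571, miR-184-3p (72.6) 261, miR-147-5p (66.2) 263 and miR-187-3p (48.5) 294. All are thus of middling abundance. Such levels compare read numbers of mature strands of similar length, and how well each strand was captured in the libraries was not tested. All 4 passed the filter on low counts, with 34 reads or more in every library.

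In the edgeR fit of all 6 libraries, the log2 difference of 2i from serum was 1.55 (SE 0.24) for miR-147-3p, 1.62 (SE 0.30) for miR-147-5p, 2.72 (SE 0.54) for miR-184-3p and 1.07 (SE 0.26) for miR-187-3p. For R2i against serum it was 1.44 (SE 0.24), 1.86 (SE 0.30), 2.04 (SE 0.54) and 1.25 (SE 0.26) in the same order. The 2 comparisons share the serum libraries. For the mean of 2i and R2i against serum, the differences were 1.49, 1.74, 2.38 and 1.16. These contrasts selected the miRNAs, so the values are a description without a test. At the limits used for all miRNAs (adjusted p below 0.01 and more than 2-fold), 4 of the 4 counted as higher in 2i, where 16.8% of all tested miRNAs did. In R2i 3 of the 4 did, beside 15.1% of all tested, miR-184-3p being the one outside the limits, and for the mean of both media 4 of the 4 did, beside 17.0%. These numbers depended on the method and on single libraries. Over 12 alternatives they ran from 1 to 4 in 2i, being 1 without serum RB18, 2 without serum RB20 or 2i RB20 and 3 without any other library. In R2i they ran from 0 to 4, being 0 without R2i RB20, 2 without R2i RB18 or either serum library and 4 without either 2i library. For the mean they ran from 2 to 4, being 2 without R2i RB20 or serum RB20 and 3 without serum RB18 or 2i RB20. miR-187-3p passed the limits in 2i under 1 of the 12, and DESeq2 and limma both gave 3 of 4 in 2i, and 4 and 3 in R2i. All log2 differences stayed positive.

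Across all tested miRNAs, the median log2 difference from serum was -0.03 in 2i and -0.07 in R2i. The 78 tested miRNAs of the Dlk1-Dio3 locus had medians of 3.97 in 2i and 3.89 in R2i, and edgeR called 66 of them higher in 2i and 66 in R2i. The differences of miR-147, miR-184 and miR-187 thus lay between the bulk of the miRNAs and the median of that locus. miR-184-3p had the greatest log2 difference of the 4 in both media and stood at rank 79 of 571 in 2i and rank 95 in R2i. Without 2i RB20 its difference in 2i fell to 1.72, still the greatest of the 4, beside 1.63 for miR-147-3p. Its place in R2i depended on a single library: without serum RB20 the difference was 1.99, below the 2.08 of miR-147-5p.

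**Figure D2:**
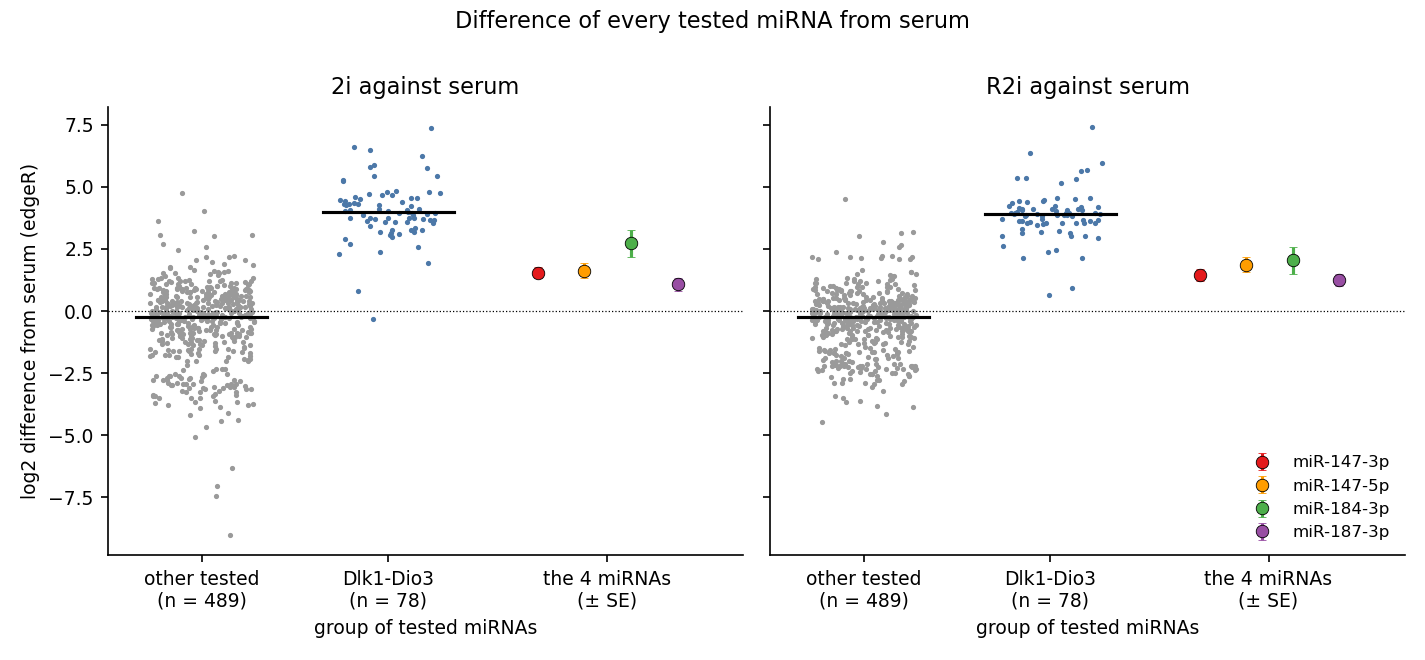
Log2 difference from serum in 2i and in R2i (edgeR) for 489 other tested miRNAs, 78 miRNAs of the Dlk1-Dio3 locus and the 4 miRNAs, with a black bar at each median and bars of 1 SE on the 4. The 4 points lie between 1.07 and 2.72, under the Dlk1-Dio3 medians of 3.97 and 3.89, and both panels use the same serum libraries.

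In both 2i and R2i, 76 of the 571 tested miRNAs (13.3%) were called higher than in serum. Outside Dlk1-Dio3, 12 of 493 were (2.43%), among them miR-147-5p, miR-147-3p and miR-187-3p. With the line as a replicate block, miR-187-3p was outside the limits in 2i, in R2i and for their mean. Ordered by the smaller of the 2 log2 differences, miR-147-5p (1.62) stood at rank 6, miR-147-3p (1.44) at rank 8 and miR-187-3p (1.07) at rank 12, next to miR-15a-5p (1.08). The other 8 were miR-451a, miR-499-5p, miR-302c-3p, miR-301b-5p, miR-302b-3p, miR-743b-3p, miR-301a-5p and miR-301a-3p. They include members of the ESC miR-302 cluster and muscle-associated miR-499-5p, encoded in a myosin gene. The normalized CPM of miR-499-5p was 16.1 ± 0.339 with serum, 151 ± 10.8 with 2i and 128 ± 66.2 with R2i (SD, n = 2). miR-451a had 0 and 3 reads in serum, too few for a measured fold. miR-184-3p was not among the 12 because of its R2i comparison, although both of its log2 differences exceeded those of miR-187-3p.

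The comparison of 2i with R2i asks whether the choice of inhibitors matters within the ground state, and the choice of the 4 did not use it directly. The fitted log2 difference of 2i from R2i was 0.11 (SE 0.23, 95% interval -0.42 to 0.65) for miR-147-3p, with 2i higher in RB18 and lower in RB20, and edgeR's adjusted p was 0.842. For miR-147-5p it was -0.24 (SE 0.28, interval -0.90 to 0.41, edgeR adjusted p 0.704), and 2i was the lower medium in both lines. miR-184-3p had 0.68 (SE 0.48, interval -0.44 to 1.80, edgeR adjusted p 0.502), with 2i higher in both lines, by 1.03-fold in RB18 and 1.98-fold in RB20. The RB18 direction turned in the deposited log2 values, at 7.02 in 2i and 7.05 in R2i. For miR-187-3p the difference was -0.18 (SE 0.25, interval -0.74 to 0.39, edgeR adjusted p 0.763), 2i being lower in both lines. None of the 4 passed the limits in edgeR, DESeq2 or limma, and 0 had an unadjusted p under 0.05 in any of these tools. Over all tested miRNAs, 2 of 571 (0.35%) were called by edgeR, the arms miR-211-5p (log2 difference 4.66) and miR-211-3p (5.10), and 104 had an unadjusted p under 0.05. With the line as a replicate block neither arm was called (log2 differences 4.71 and 5.11, edgeR adjusted p 0.0174 and 0.0176), nor without serum RB18 (4.67 and 5.13, adjusted p 0.0123 for both). Without R2i RB20 (4.20, adjusted p 0.0342) or 2i RB20 (4.89, adjusted p 0.0138) miR-211-3p alone was lost. A p that misses the threshold does not show that the values were equal, and the interval of miR-184-3p includes more than 2-fold in favour of 2i. Without 2i RB20 its log2 difference turned to -0.34. Near 0, 3 others also changed sign under 1 alternative, miR-147-5p to 0.04 without R2i RB20, miR-187-3p to 0.02 without 2i RB18 and miR-147-3p to -0.04 with only miRNAs averaging at least 50 reads.

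Line was the other comparison that the choice did not use, with 3 libraries per line and medium as a term in the model. RB20 lay above RB18 for miR-184-3p by a log2 difference of 0.84 (SE 0.33, interval 0.01 to 1.66) in 3 of 3 media, and the single differences were 0.02 for serum, 1.61 for 2i and 0.66 for R2i. The serum direction turned in the deposited log2 values, at 5.37 in RB18 and 5.28 in RB20. For the fitted difference the edgeR adjusted p was 0.741. This difference was 0.26 without 2i RB18 and 0.40 without 2i RB20. Without serum RB18 or without serum RB20 it was 1.12 with edgeR adjusted p of 0.000177 and 0.000723, past the limits, in fits where the lone serum library bears on no line difference and 1 residual degree of freedom remains. Over all alternatives tried the adjusted p ranged from 0.000177 to 1.0.

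For miR-147-5p, RB20 lay above RB18 by 0.44 (SE 0.18, interval -0.02 to 0.89, edgeR adjusted p 0.741), also in 3 of 3 media. miR-187-3p differed by 0.10 (SE 0.22, interval -0.43 to 0.64, edgeR adjusted p 0.951), RB20 being higher in 2 of 3 media. It changed sign in 3 of 12 alternatives, to -0.04 when library totals replaced TMM, -0.16 without 2i RB18 and -0.02 without 2i RB20. miR-147-3p differed by 0.03 (SE 0.20, interval -0.46 to 0.51, edgeR adjusted p 0.984), with RB20 higher in 1 of 3 media, and no direction held. It was negative in 7 of 12 alternatives, among them -0.12 with library totals, -0.17 without R2i RB18, -0.09 without R2i RB20 and -0.02 without 2i RB18. edgeR called 0 of the 571 tested miRNAs between the lines (0.0%), with 36 at an unadjusted p under 0.05, while DESeq2 called 0 with 25 such miRNAs and limma 0 with 36. Of the 4 miRNAs, miR-184-3p had an unadjusted p under 0.05 in edgeR and DESeq2 but not in limma. The p-values for line measure the spread left between libraries after line and medium. Pool, sequencing and any change of the line difference from medium to medium are combined in it. For 2i against R2i the model held medium alone, so that spread also includes line.

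**Figure D3:**
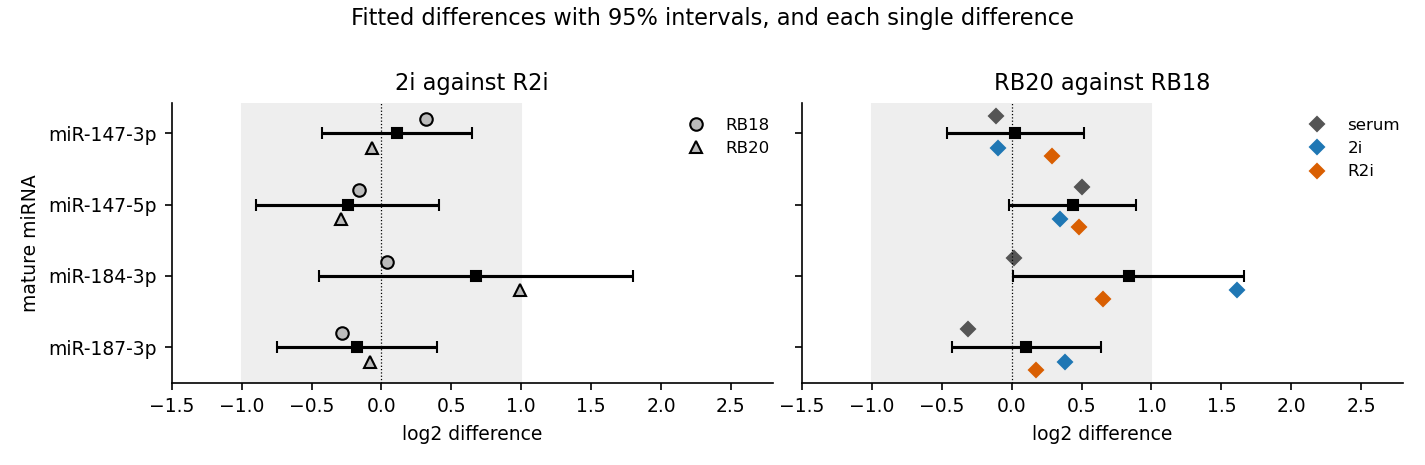
Log2 differences of 2i from R2i and of RB20 from RB18 for the 4 miRNAs, with squares and bars for edgeR's fitted value and 95% interval, grey symbols for each line, coloured diamonds for each medium, and grey shading within 2-fold. The 2i intervals all include 0, and the single line differences of miR-184-3p run from 0.02 in serum to 1.61 in 2i.

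The 2 arms of a hairpin come from one precursor, so their share of reads is a readout apart from the summed level. Of the miR-147 reads, the 3p arm took 70.5% (95% Wilson interval 62.2 to 77.6) in serum RB18 and 60.9% (53.1 to 68.2) in serum RB20. In 2i the share was 68.0% (63.6 to 72.1) for RB18 and 60.9% (57.4 to 64.4) for RB20, and in R2i 60.4% (54.0 to 66.5) and 57.2% (53.9 to 60.4). RB18 had the higher 3p share in each medium, yet its interval overlapped that of RB20 each time, in 2i only between 63.6% and 64.4%. R2i had the lowest share in both lines, although its intervals overlapped those of serum and 2i in the same line, in RB18 2i only between 63.6% and 66.5%. These differences were not tested. Reads are not molecules, and the intervals cover counting error only.

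Over all libraries the 5p arm held 38.7% of the 2601 miR-147 reads, of which R2i RB20 gave 888, and in single libraries it held from 29.5% (serum RB18) to 42.8% (R2i RB20). Among 216 hairpin names with both arms listed and at least 500 reads, the median share of the minor arm was 4.01%, and 18 had a larger one than miR-147, in reads pooled over the libraries. miR-184 was at the other end, with 1198 reads on the 3p arm and 5 on the 5p arm, a minor-arm share of 0.416% that 181 hairpins exceeded. miR-184-5p, shown above with its sequence, had 0 reads in both serum libraries and in 2i RB20, 1 read each in 2i RB18 and R2i RB18, and 3 reads in R2i RB20, which is too few to place it by medium. The reads of miR-187-5p (RB18 and RB20) numbered 9 and 3 for serum, 7 and 8 for 2i, and 4 and 16 for R2i, or 6.19% of the miR-187 reads. It was not among the tested miRNAs, and its 1.49 to 4.93 normalized CPM in serum overlapped the 2.44 to 4.58 of the ground-state libraries, unlike its 3p partner.

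**Figure D4:**
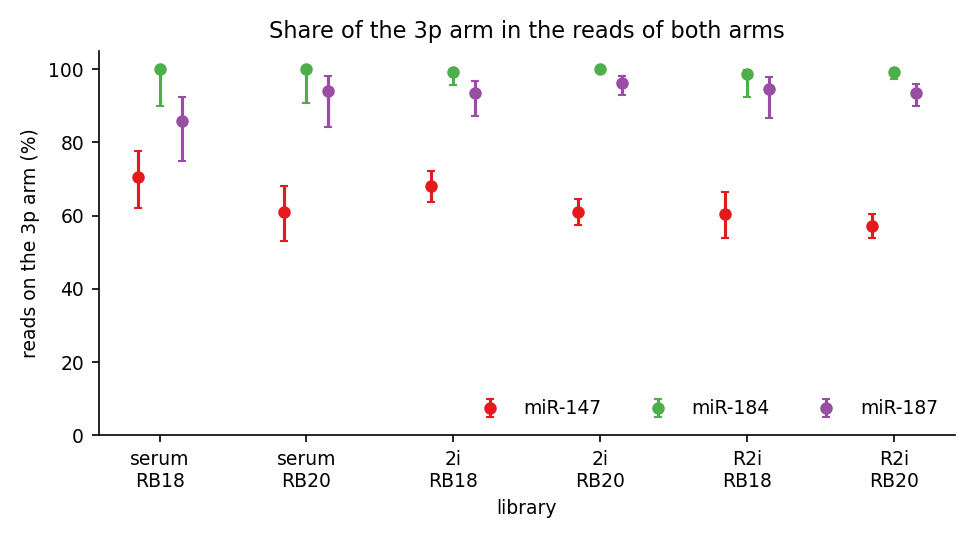
Share of the 3p arm in the reads of both arms for miR-147, miR-184 and miR-187 in each library, with 95% Wilson intervals for counting error, on an axis from 0. miR-147 stays between 57.2% and 70.5%, whereas miR-184 is at 98.6% or more and miR-187 at 85.7% or more.

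Over the 6 libraries, the 4 miRNAs varied alike, with Pearson r of log2(normalized CPM + 1) between 0.892 (miR-147-3p and miR-184-3p) and 0.947 (the 2 arms of miR-147). These are descriptions over n = 6 libraries that share media and lines and fall into a serum and a ground-state group, which the choice of the 4 guarantees. Among the other tested miRNAs, miR-147-3p was most like miR-382-3p (r = 0.995), miR-543-3p (0.992) and miR-499-5p (0.991), the first 2 from Dlk1-Dio3. miR-147-5p was most like miR-409-5p (0.981), miR-540-3p (0.980) and miR-134-5p (0.978), all 3 from that locus. For miR-187-3p they were miR-539-5p (0.967), miR-337-3p (0.962) and miR-431-3p (0.952), again from Dlk1-Dio3. Likeness to miRNAs of this locus is no result apart from the choice. Of the 76 tested miRNAs called higher in both media, only 12 lay outside it. miR-184-3p differed, with miR-23b-3p (0.984), let-7a-5p (0.954) and miR-301a-5p (0.950) nearest, all outside the locus. miR-23b-3p ran parallel to it in rank while spanning little, from 650 normalized CPM in serum RB18 to 870 in 2i RB20.

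Since miR-147 and miR-187 are known from inflammation, the list of Toll-like receptor and macrophage-response miRNAs was set beside them. Apart from miR-147-3p and miR-187-3p, 8 of its miRNAs were tested, and edgeR called 2 lower in 2i and 3 lower in R2i, with medians of -1.03 and -1.35 against -0.03 and -0.07 for all tested miRNAs. Of all tested miRNAs 17.3% were called lower in 2i, 15.6% in R2i and 114 of 571 for the mean of both media. miR-155-5p, the inflammation-induced miRNA of macrophages, had 183 and 182 normalized CPM for serum (RB18, RB20), 60.7 and 56.2 for 2i, and 58.3 and 63.8 for R2i. Its log2 differences were -1.64 (SE 0.23, edgeR adjusted p 0.000576) in 2i and -1.58 (SE 0.23, adjusted p 0.000899) in R2i, lower in both lines. miR-21a-5p was lower in both media too, by -2.73 and -2.52 (SE 0.24 each). In contrast, miR-146a-5p, a feedback inhibitor of Toll-like receptor signalling, passed the limits in R2i (-2.14, SE 0.28, edgeR adjusted p 0.00055) but not in 2i (-0.84, SE 0.27, adjusted p 0.0311), a difference between media for which edgeR's adjusted p was 0.0714. Among the 8, only miR-146b-5p had positive differences, 0.26 (SE 0.23, edgeR adjusted p 0.379) in 2i and 0.05 (SE 0.23, adjusted p 0.88) in R2i. The differences of miR-132-3p, miR-212-3p, miR-9-5p and miR-125b-5p were negative in both media, without a call. miR-223-3p, a defining miRNA of myeloid cells, had 0 reads in all 6 libraries, below the floor of 3 reads set for these counts. miR-147-3p and miR-187-3p, chosen for more reads in 2i and R2i, had the opposite direction to the called miRNAs of this list.

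The islet and eye lists hold miR-184-3p and miR-187-3p. Of the 7 other tested islet miRNAs, edgeR called 1 in 2i, miR-7b-5p, lower by a log2 difference of -1.79 (SE 0.35, adjusted p 0.00385) and lower in both lines, where 17.3% of all tested miRNAs were called lower and 16.8% higher. In R2i edgeR called 0 of the 7, beside 15.6% lower and 15.1% higher of all tested, with 2 at an unadjusted p under 0.05 and 0 called by DESeq2 or limma. For the mean of both media it called miR-7a-5p and miR-7b-5p lower, where 114 of all 571 tested were called lower. The median of the 7 was -1.04 in 2i and -0.89 in R2i, against -0.03 and -0.07 for all tested miRNAs. The differences in 2i and R2i were positive for miR-33-5p (0.45 and 0.56) and miR-29a-3p (0.29 and 0.33), without a call. That of miR-204-5p was positive in 2i alone (0.18), and the rest were negative in both media. Of the 8 other tested lens, cornea and retina miRNAs, edgeR called miR-211-5p higher and miR-205-5p lower in 2i, and miR-31-5p lower in R2i, beside the same shares of all tested miRNAs. The normalized CPM of miR-211-5p were 58.6 and 50.6 for serum, 1161 and 1744 for 2i, and 35.2 and 76.7 for R2i, so unlike miR-184-3p it was high in 2i and not in R2i.

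Mir184 is the neighbour of imprinted Rasgrf1, and miRNAs of other imprinted regions outside Dlk1-Dio3 and Sfmbt2 were therefore listed with it. Of the 9 tested besides miR-184-3p, edgeR called 3 lower in 2i (miR-675-3p, miR-483-5p and miR-483-3p) and 1 lower in R2i (miR-483-3p), beside 17.3% and 15.6% of all tested miRNAs, with medians of -1.16 and -0.54. In serum RB18 and RB20, miR-675-3p had 16 and 11 reads and miR-483-5p 23 and 13. Both had 0 reads in each 2i library, too few for a measured fold. miR-483-3p, encoded in Igf2, reached 48.2 and 30.2 normalized CPM with serum, against 0.972 and 1.22 with 2i and 3.43 in both R2i libraries. miR-184-3p had the reverse order, with its lowest values in serum. So did miR-298-5p, the most abundant of the list, with log2 differences of 0.81 (SE 0.24, edgeR adjusted p 0.0251) in 2i and 0.47 (SE 0.24, adjusted p 0.164) in R2i, and miR-298-3p differed by 1.19 (SE 0.31, adjusted p 0.0145) in 2i and 0.43 (SE 0.32, adjusted p 0.338) in R2i.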

How the data were processed

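Per the submitters' processing notes, reads were handled with FastQC 0.11.5, cutadapt 1.3, Bowtie 1.1.2 and featureCounts 1.5 on mm10. The authors deposited whole-number counts for 1907 mature miRNAs. The deposited log2 values, for 1233 miRNAs, equal log2(count / size factor + 1) within 0.005, with 0 other value columns unused. Counts were tested with edgeR 4.0.16 (R 4.3.3): TMM scaling, filterByExpr (minimum count 10, minimum total 15, leaving 571 miRNAs) and quasi-likelihood tests of a model of medium over 6 libraries, or of line plus medium. Calls needed a Benjamini-Hochberg adjusted p below 0.01 and more than 2-fold. SE is the log2 difference over the square root of F. The biological coefficient of variation was 24.6%. The fits were tested on simulated data. Cell line pairs the libraries, by the labels, and line differences correlated at 0.21 between serum and 2i, 0.248 between 2i and R2i and -0.128 between serum and R2i (571 miRNAs). Alternatives were DESeq2 1.42.0, limma 3.58.1 on the deposited log2 values, library totals, other filters and limits, the line as a replicate block, and leaving out each library. Positions are from GRCm38, by RefSeq and GENCODE M21, and 16 tested names without a position, and names with a gene elsewhere, count as outside Dlk1-Dio3. Named are the 4 miRNAs, their partner arms, the 3 others most alike to each, miRNA genes within 1 Mb, equal seeds, the 10 outside Dlk1-Dio3 with the largest smaller change among those higher in both media, the 3 largest called changes each way in 2i against R2i, and the listed groups and markers. miR-15a-5p was named after its values were seen. The miRNAs and lists were chosen with earlier results of these data known. Tables used Python 3.11.15 with numpy 2.4.6, pandas 2.3.3 and scipy 1.17.1, and plots matplotlib 3.10.9.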

Additional observations from a re-analysis of the deposited data

Results flagged for a closer look

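For miR-147-3p, the difference between 2i and R2i had opposite signs in the 2 lines. The log2 difference of 2i from R2i was 0.319 in RB18 and -0.068 in RB20, each from 1 library per medium, and whether the lines differ was not tested.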

How the results depend on the processing

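For 2i against R2i, edgeR's 2 calls became 16 with DESeq2 (8 of them higher in 2i), 25 without a filter on low counts (14 higher), 1 with a mean count of at least 50 and 0 with the line as a replicate block (102 at an unadjusted p under 0.05). Leaving out each library gave 0 to 3 calls, with 1 without R2i RB20 or 2i RB20 and 0 without serum RB18 (131 at an unadjusted p under 0.05). For RB20 against RB18, the 0 calls became 4 without a filter, and 0 to 12 when each library was left out, with 4 without either R2i library, 11 without serum RB18 and 12 without serum RB20. The cause of these shifts was not tested. The total calls against serum stayed within 1.5 times of those reported under all alternatives run, and the replicate block gave 177 for 2i, 155 for R2i and 195 for both together, in place of 195, 175 and 211. Those called lower moved further, in 2i from 99 to 58 (9.63% of tested) without 2i RB20 and in R2i from 89 to 53 (8.77% of tested) without R2i RB20. Library totals in place of TMM moved the median of all tested miRNAs from -0.07 to 0.03 for R2i against serum and from 0.06 to -0.08 for RB20 against RB18. The log2 differences of the 4 miRNAs from serum ranged from 0.87 (miR-187-3p, 2i) to 3.34 (miR-184-3p, 2i), all positive, a direction that their choice fixes. Of the 3 miRNAs most alike to each, rank correlation kept 0 for miR-147-3p and 1 for each of the others, and the deposited log2 values kept 2 for each. Lone libraries in these fits are assumed to vary like the other groups. With 34 to 606 reads per library, counting error adds to the spread of the 4 miRNAs between libraries, relatively most in serum and in R2i RB18. How much of that spread it makes up was not tested.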

Other observations

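Markers of cell types other than ESCs were summed in normalized CPM, in the order serum, 2i and R2i with RB18 before RB20, and whether they bear on the 4 miRNAs was not tested. The muscle list summed to 172 and 92.2, 7.78 and 1.83, and 13.7 and 8.58. Its most abundant member was miR-208b-3p, except in R2i RB18, where miR-1a-3p was higher (6.0 against 4.29). Of this list edgeR called 3 of 3 tested lower in both media, where it called 17.3% (2i) and 15.6% (R2i) of all tested miRNAs lower. Muscle-associated miR-499-5p, which is not on that list, was called higher in both. Blood and macrophage markers summed to 3210.4 and 3265, 5195 and 2082, and 1499 and 763, with miR-223-3p at 0 reads in every library. They were led by miR-142a-5p in serum and 2i and by miR-150-5p in R2i. Of the 4 tested, edgeR called miR-451a higher in both media, beside 16.8% and 15.1% of all tested, and miR-142a-5p lower in R2i, beside 15.6%. Epithelium and lens markers summed to 2786 and 5085, 2504 and 2615, and 1565 and 2313. They were led by miR-205-5p except in 2i RB20, where miR-211-5p was higher (1744 against 855). For the mean of both media edgeR called 1 of 4 higher (miR-211-5p) and 2 lower (miR-203-3p and miR-205-5p), beside 97 higher and 114 lower of all 571 tested. In 2i it called the same miRNAs, beside 16.8% higher and 17.3% lower. In R2i it called miR-203-3p alone, lower, beside 15.6%.

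Fibroblast and mesenchyme markers summed to 1431 and 2047, 3331 and 3653, and 2415 and 2423, led by miR-143-3p. For the mean of both media against serum, edgeR called 0 of 4 tested, with 2 at an unadjusted p under 0.05 and 1 called by DESeq2 and 1 by limma. The neural list summed to 1166 and 1020.2, 1019 and 867, and 914 and 1012. It was led by miR-124-3p in serum RB18 and 2i RB18 and by miR-128-3p in the other libraries. For the mean of both media edgeR called 0 of 7 tested, with 2 at an unadjusted p under 0.05 and 0 by DESeq2 or limma. In 2i DESeq2 called 1. The endoderm and islet list, led by miR-192-5p, summed to 1413 and 2022, 1468 and 2038, and 1676 and 2474. For the mean of both media edgeR called 0 of 3 tested, with 1 at an unadjusted p under 0.05 and 0 by DESeq2 or limma. DESeq2 called 1 in 2i. Of the 17 ESC markers edgeR called 4 higher, all of the miR-302 to miR-367 cluster, for the mean of both media, beside 17.0% of all tested. It called 2 higher in 2i, beside 16.8%, and 5 in R2i, beside 15.1%.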
